A study of Homo sapiens with 4 samples.

Results

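The transcripts described here belong to 10 receptor tyrosine kinase genes of breast cancer cells, EGFR, ERBB2, ERBB3, MET, AXL, EPHA1, EPHA2, IGF1R, INSR and FGFR1. Their rows were found by gene name in a RIP-seq transcript table, and all 10 genes had a row. The genes were picked with earlier results of these data known, so their place among other genes is a description only. Together they had 84 listed transcripts of 75165 in the table, which covers 20298 genes. The cells were MDA-MB-231, an established triple negative breast cancer line, infected with a lentivirus that carries 3x flag-YTHDC1 (multiplicity of infection 4) and kept for 4 days in puromycin at 2 μg/ml. All libraries thus came from cells that overexpress the tagged protein. In RIP-seq, RNA that an antibody brings down together with a protein is sequenced next to RNA of the starting lysate. The cells received 3 UV exposures of 120000 μJ/cm2 before their nuclei were lysed. For each of 2 Flag-YTHDC1 IP libraries, 5 μg of anti-Flag antibody was used on 500 μg of nuclear protein, and 50 μg was set aside for each of 2 input libraries.

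The measurement used here is the authors' mean normalized count of each transcript, which averages the 4 libraries, IP and input alike. It therefore shows how much of a receptor transcript was read in these nuclear samples as a whole, and it cannot be split into IP and input. No value per library was used, so library depth is unknown, no replicate error can be given, and no test was run. The lowest mean normalized count in the table was 2.72, the median was 44.2 and the sum was 33361205. A gene total is the sum over the listed transcripts of a gene. Normalized counts were not divided by transcript length, so a long transcript collects more of them than a short one of equal abundance, and gene totals are read here as read totals and not as an order of RNA abundance.

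Receptor tyrosine kinases sit in the cell membrane. Most bind a ligand outside the cell, pair with another receptor and phosphorylate each other and their adaptors inside. From there the signal runs to the RAS-ERK and PI3K-AKT pathways, which drive growth, survival and motility. Triple negative breast cancer lacks the estrogen receptor, the progesterone receptor and amplified ERBB2, and such cells often carry EGFR, AXL and MET instead. YTHDC1 is the nuclear reader of N6-methyladenosine in RNA.

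The label of the cells was checked against markers. All 8 mesenchymal markers had a row, and their gene totals ran from 1823 for ZEB1, a transcription factor of the mesenchymal state, to 80785 for the intermediate filament gene VIM. AXL is on this list as well as among the 10 receptor genes, so it is no separate check. Of the 6 luminal markers, 3 had a row, and ESR1 and PGR, the genes of the estrogen and progesterone receptors, and FOXA1 were those without. The 3 luminal markers with a row were the keratin gene KRT19 with a total of 7521 and the transcription factor genes XBP1 with 2715 and GATA3 with 584, beside a median of 227 over all gene totals. Of 5 epithelial markers 4 had a row, ESRP1 being the one without. The epithelial cadherin gene CDH1 had a total of 10.04 and EPCAM, another epithelial surface gene, 78.3, while the tight junction genes CLDN7 and CLDN4 had 249 and 2266. Among leukocyte markers, CD14 had 138 and PTPRC 3.81, and CD3E had no row. Of 3 endothelial markers, PECAM1 had 102 and VWF 10.7, and CDH5 had no row. The part of other cells in these values was not tested. MALAT1, a nuclear lncRNA, had a total of 45810, in samples made from nuclear lysate. YTHDC1, the gene overexpressed from the vector, had a total of 55488 over 6 transcripts. In such bulk samples, fewer cells that carry an RNA and less of it per cell cannot be told apart.

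The 10 receptor genes summed to 137476 mean normalized counts, 0.412% of the table. Their totals ran from 4.50 for EPHA1 to 63189 for AXL, with a median of 5179, and 7 of the 10 genes lay above 90% of all gene totals. Of their 84 transcripts, 20 had a mean normalized count of at least 1000 (23.8%, against 7.23% of the whole table) and 15 were below 10. The highest of these 15, FGFR1-219 at 9.84, lay above 16.8% of the whole table, so such low values were common there as well. The strongest transcript of a gene was protein-coding in 9 of the 10 genes, EPHA1 being the exception. It was so in 88.2% of 10075 coding genes with a total of at least 100 and at least 2 transcripts, limits that EPHA1 does not meet. Among the 9 receptor genes with at least 2 transcripts it was so in 100%, and among 4967 such coding genes with a total of at least 1000 in 91.2%. The plot of single transcripts shows how unevenly the reads of each gene were spread.

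**Figure D1:**
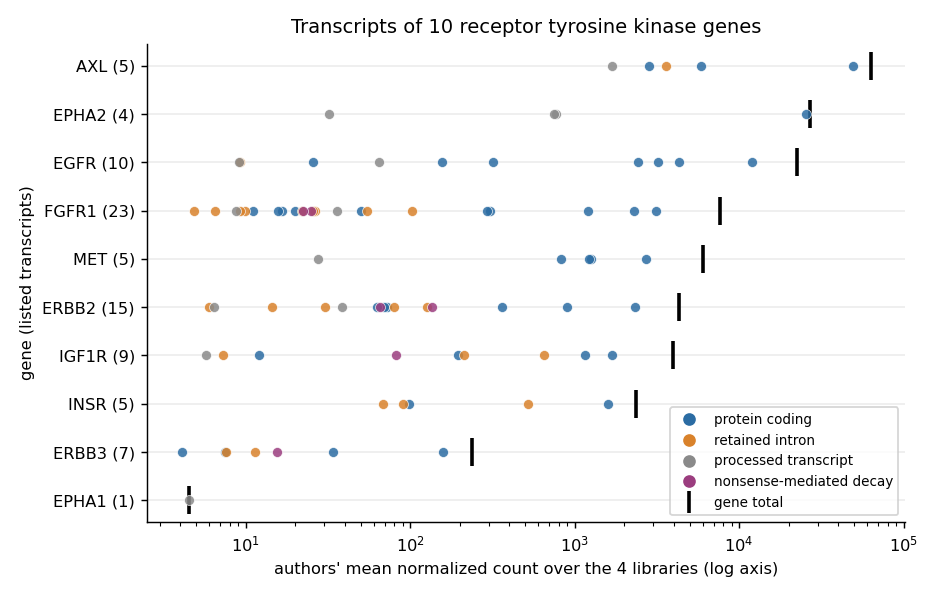
Each point is a listed transcript, placed by the authors' mean normalized count over the 4 libraries on a log axis and coloured by transcript type, and the black bar is the gene total. AXL reaches 63189 while EPHA1 has a lone processed transcript at 4.50, and in EPHA2 the main coding transcript lies next to the gene total.

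Among the ERBB receptors, EGFR (ENSG00000146648.18, chr7:55019017-55211628), the receptor of EGF and TGFA, had 10 listed transcripts and a gene total of 22483. EGFR-201, which encodes the full-length receptor, had a mean normalized count of 11949, or 53.1% of the gene. It was followed by EGFR-207 with 4331 (19.3%), EGFR-211 with 3196 (14.2%) and EGFR-204 with 2425 (10.8%), all protein-coding. These 4 transcripts held 97.4% of the EGFR reads, and the other 6 lay between 9.14 and 318. EGFR-202, EGFR-203 and EGFR-204 encode shortened receptors that lack the membrane and kinase parts. The 3 together held 11.6% of the EGFR reads, which were not divided by length and so give no share of molecules. The lowest mean normalized counts were 9.19 for the retained-intron transcript EGFR-210 and 9.14 for EGFR-209, a processed transcript, which is a noncoding class of the annotation. Reads that fit several isoforms were divided among them by estimate, so such shares can rest on few reads that belong to 1 isoform alone.

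ERBB2 (ENSG00000141736.13, chr17:39688094-39728658), the receptor without a known ligand that pairs with the other ERBB proteins, had 15 transcripts and a gene total of 4303. ERBB2-201 held 54.2% of it with 2332 and ERBB2-204 held 21.0% with 904, both protein-coding. The other 13 transcripts lay between 5.94, for the retained-intron transcript ERBB2-208, and 360. Transcripts of types other than protein-coding, which are retained-intron, processed and nonsense-mediated decay transcripts, made up 9 of the 15 transcripts and 11.7% of the reads. ERBB3 (ENSG00000065361.15, chr12:56080108-56103505), a neuregulin receptor with an impaired kinase that signals through its partners, had 7 transcripts and a gene total of 238. ERBB3-203 with 158 (66.4%) and ERBB3-213 with 34.1 (14.3%) led, and ERBB3-207 was lowest with 4.09. The ERBB3 total lay near the middle of all 20298 gene totals, above 50.7% of them, whereas those of EGFR and ERBB2 lay above 99.3% and 92.9%.

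AXL (ENSG00000167601.12, chr19:41219223-41261766), the receptor of GAS6 and a driver of invasion in mesenchymal breast cancer cells, had the largest read total of the 10 genes and 5 transcripts. AXL-202 alone had a mean normalized count of 49204, which was 77.9% of the gene. AXL-201, which differs from it by a small alternatively spliced exon next to the membrane, had 5855 (9.27%). The reads were thus assigned to AXL-202 over AXL-201 at a ratio of 8.40, for whole transcripts not divided by length. Reads over that exon alone were not examined. The retained-intron transcript AXL-205 had 3599.7, or 5.70%, and the lowest of the gene, AXL-204, still had 1681. In each of the other 9 genes the lowest transcript was below 100.

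MET (ENSG00000105976.15, chr7:116672196-116798377), the receptor of hepatocyte growth factor, had 5 transcripts and a gene total of 6056. MET-201 had 2732 (45.1%), MET-202 had 1258 (20.8%), MET-204 had 1217 (20.1%) and MET-206 had 822 (13.6%). All 4 are protein-coding and held 99.5% of the gene between them. MET-201 and MET-202, which encode the full-length receptor, made up 65.9%, while MET-204 encodes a shortened form that ends before the kinase. The only other row was MET-207, a processed transcript at 27.4.

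The EPH receptors, which bind ephrins on neighbouring cells, were split. EPHA2 (ENSG00000142627.13, chr1:16124337-16156069), a receptor of A-type ephrins, had a gene total of 27155 over 4 transcripts. Its only coding transcript, EPHA2-201, had 25600.1 and held 94.3% of the reads, a larger share than that of the strongest transcript in 93.0% of 10075 coding genes with a total of at least 100 and at least 2 transcripts. The other 3 transcripts were processed transcripts, from 769 for EPHA2-202 down to 32.1 for EPHA2-203. EPHA1 (ENSG00000146904.9, chr7:143391129-143408856) had 1 row, the processed transcript EPHA1-202, with a mean normalized count of 4.50. It had no listed coding transcript, and its total lay above 2.11% of all gene totals, close to the lowest value in the table.

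In the insulin receptor family, retained-intron transcripts, which keep an intron and code for no full protein, took a large part of the reads. The RNA came from nuclei and, per the study's methods, was depleted of rRNA. Reads of RNA not yet spliced and of finished RNA that keeps an intron cannot be told apart in these shares. IGF1R (ENSG00000140443.15, chr15:98648539-98964530), the receptor of insulin-like growth factors, had 9 transcripts and a gene total of 3990.1. Its coding transcripts IGF1R-217 with 1678 (42.1%) and IGF1R-216 with 1150 (28.8%) were followed by the retained-intron transcript IGF1R-208 with 647 (16.2%). All 3 retained-intron transcripts together held 21.7% of the gene, and the lowest row was IGF1R-214 with 5.76. INSR (ENSG00000171105.14, chr19:7112265-7294414), the insulin receptor, had 5 transcripts and a gene total of 2363. INSR-201 had 1586 (67.1%) and the retained-intron transcript INSR-205 had 520 (22.0%). INSR-202, which lacks the alternatively spliced exon by which the A and B forms of the receptor differ, had 99.0 (4.19%). Reads were thus assigned to INSR-201, the B form, over INSR-202 at a ratio of 16.0. The ratio compares whole transcripts, not divided by length. Reads over that exon alone were not examined, so it is not a ratio of B to A RNA. With INSR-203 and the lowest row, INSR-204 at 68.2, retained introns held 28.7% of the gene.

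Among the 10075 coding genes, 50.7% had no listed retained-intron transcript, and the upper quartile of the retained-intron share was 4.94%. The share of IGF1R exceeded that of 92.1% of these genes and the share of INSR that of 94.7%. In the other receptor genes it was 7.94% in ERBB3, 5.94% in ERBB2, 5.70% in AXL, 3.39% in FGFR1 and 0.0409% in EGFR, and MET, EPHA1 and EPHA2 had no listed retained-intron transcript. A high share was not particular to the insulin receptor family. Among the other receptor tyrosine kinases, MST1R, the receptor related to MET, had 31.5% and TYRO3, related to AXL, had 28.8%. Most of that list was low. Of its 16 genes with a total of at least 100 and at least 2 transcripts, 9 had no listed retained-intron transcript. Their median share was 0% and the upper quartile 2.09%.

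**Figure D2:**
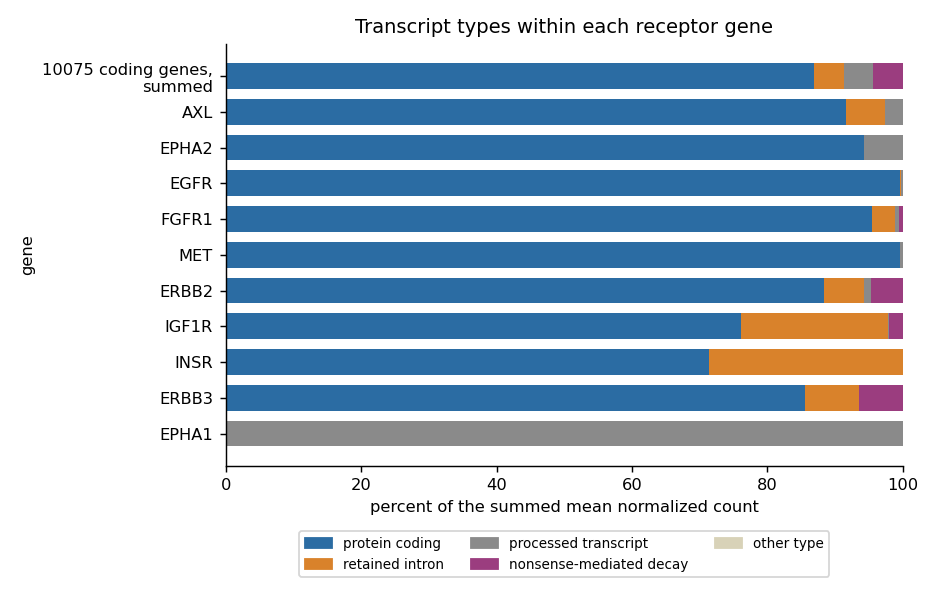
Each bar divides the summed mean normalized counts of a gene, in percent, by transcript type, with 10075 coding genes summed in the top bar. Retained introns take 21.7% of IGF1R and 28.7% of INSR, and protein-coding transcripts take 99.6% of EGFR and 99.5% of MET.

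FGFR1 (ENSG00000077782.20), a receptor of fibroblast growth factors, had the most transcripts, 23, more than 99.7% of the 10075 coding genes, and a gene total of 7694. FGFR1-201 had 3131 (40.7%), FGFR1-204 had 2298 (29.9%) and FGFR1-238 had 1199 (15.6%), all protein-coding. These 3 held 86.2% of the reads. The other 20 transcripts lay between 4.84, for the retained-intron transcript FGFR1-215, and 305, and they included 9 retained-intron and 2 nonsense-mediated decay transcripts in all, which held 3.39% and 0.612% of the gene.

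Over the 10 genes together, 41 transcripts were protein-coding, 24 retained-intron, 13 processed transcripts and 6 nonsense-mediated decay, the class with an early stop codon. The coding transcripts held 93.1% of the summed count, retained introns 4.14%, processed transcripts 2.50% and nonsense-mediated decay 0.252%. Over the transcripts of the 10075 coding genes the same classes held 86.9%, 4.41%, 4.26% and 4.35%. AXL alone made up 46.0% of the receptor sum, so the shares were also taken gene by gene. Over the 9 receptor genes with at least 2 transcripts, the median coding share was 91.6%, beside 91.0% in the coding genes. Their median retained-intron share was 5.70%, beside 0%, or 0.596% in the coding genes with a total of at least 1000. These receptor genes had a median of 7 listed transcripts, beside 5 and 6 in those coding genes, and the comparison was not matched for that number. Nonsense-mediated decay transcripts held 6.46% of ERBB3, 4.69% of ERBB2, 2.06% of IGF1R and 0.612% of FGFR1, and the other 6 genes had none listed. Their share of the receptor sum was 0.100% with a minimum mean normalized count of 100. In the same 9 genes the strongest transcript held a median of 54.2% of its gene, from 40.7% in FGFR1 to 94.3% in EPHA2, beside a median of 60.0% (quartiles 45.1% and 78.5%) in the coding genes.

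Of 44 other receptor tyrosine kinases, 26 had a row, with a median gene total of 160 and a highest total of 5787. EPHB2, a receptor of B-type ephrins, had this highest total, followed by EPHB4 of the same class with 4089 and ROR1, a WNT5A receptor, with 3430. Of the 10 largest read totals over the whole receptor list, 7 belonged to the 10 genes. ERBB4, the remaining ERBB receptor, had 8.07. KIT, PDGFRA, RET and 15 further genes had no row under their symbols. The plot of receptor totals shows AXL, EPHA2 and EGFR apart from all others, with ERBB3 and EPHA1 far down the list.

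**Figure D3:**
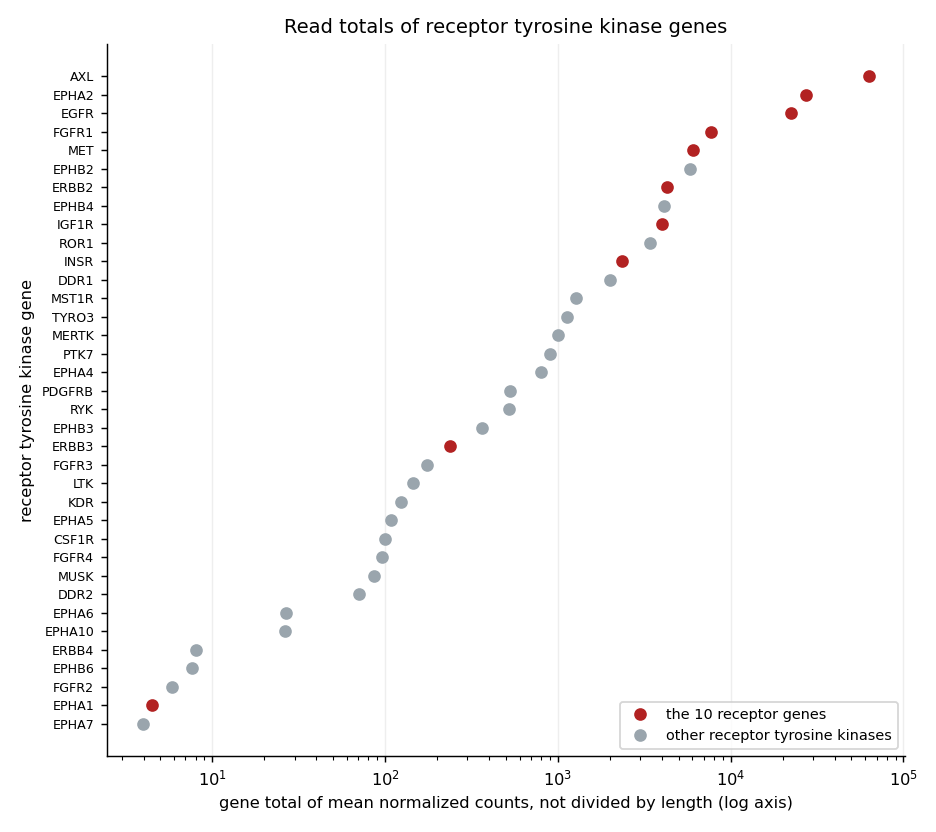
Points give the gene total of mean normalized counts, not divided by length, on a log axis for 36 receptor tyrosine kinase genes with a row, ordered by that total. The 10 receptor genes, in red, include the 5 largest totals, and ERBB3 and EPHA1 come at places 21 and 35.

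Of 21 ligand genes 17 had a row, with a median gene total of 198, beside the median of 227 over all genes. GAS6, the AXL ligand, had 13023, NRG1, the neuregulin that binds ERBB3, had 3728, and HBEGF, a ligand of EGFR, had 2433. HGF, IGF1, INS and FGF2 had no row. All 18 adaptor and effector genes had a row, with a median of 2932. IRS1, the docking protein of the insulin and IGF1 receptors, had 22187, PLCG1, a phospholipase recruited by active receptors, had 7029.6, and SHC1, an adaptor upstream of RAS, had 5620.5. Of 14 genes that restrain receptors 13 had a row, with a median of 3218. PTPRJ, a receptor phosphatase, had 13137, ERRFI1, an inhibitor of the EGFR kinase, had 9193, and HGS, which sorts marked receptors for degradation, had 8272.

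**Figure D4:**
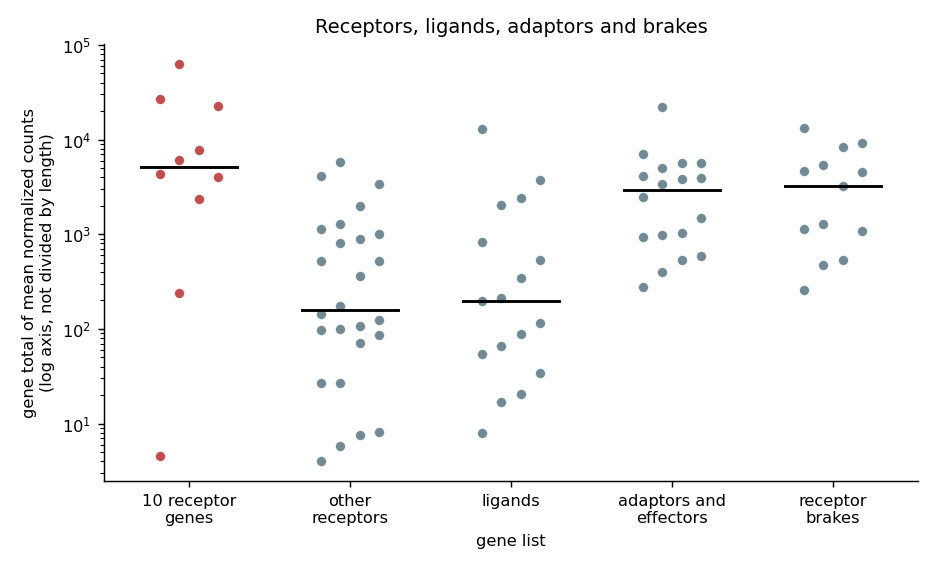
Points give gene totals of mean normalized counts, not divided by length, on a log axis for each gene with a row, and black lines are medians. The medians are 5179 for the 10 receptor genes, 160 for other receptors, 198 for ligands, 2932 for adaptors and effectors, and 3218 for receptor brakes.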

How the data were processed

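RIP-seq was analysed in MDA-MB-231 cells with forced expression of 3x flag-YTHDC1, with 2 IP and 2 input libraries grouped by their titles. According to the paper's methods and the submitters' processing notes, reads were mapped with STAR (version 2.7.2b) to a GENCODE v33 transcriptome (GRCh38) and transcript reads were estimated with RSEM (version 1.2.31). Transcripts that reached 5 reads in 50% or more of the libraries were kept by the authors, who then applied RUVSeq against batch effects and ran DESeq2. The strand setting and the size factors are not given in the sources used here.

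The signal value used here, as deposited by the authors, is a normalized count per transcript averaged across the libraries. A further 4 columns hold the authors' own comparison (log2 fold change, its standard error, p-value and adjusted p-value). They were not used, so the planned test of IP against input was not run. Depth per library is unknown.

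Mean normalized counts were summed per gene and transcript type with python 3.11.15, numpy 2.4.6, pandas 2.3.3 and matplotlib 3.10.9, after a check on simulated data. No sum was divided by length, since no transcript lengths were used. Comparison genes were coding genes with a total of at least 100 and at least 2 transcripts. Gene positions are RefSeq's, for GRCh38.p14. All 10 genes were named, with each transcript of at least 10% of its gene (at most 5), the strongest and the lowest, and the 3 highest totals of each further list. The members and lists were chosen with earlier results of these data known. Other genes and transcripts, among them ERBB4, MST1R and TYRO3, were named after their values were seen. The alternatives were minimum counts of 10 and 100, protein-coding transcripts alone, the strongest transcript alone and, added after seeing the data, comparison genes with a total of at least 1000.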

Additional observations from a re-analysis of the deposited data

How the results depend on the processing

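No paired analysis was possible because the values used carry no library, and leaving out a replicate, other normalizations and a test on counts could not be run for the same reason. Values per kilobase were not run, since no transcript lengths were used. With a minimum mean normalized count of 10, 69 of the 84 transcripts and 39 of the 41 coding transcripts were left, and with a minimum of 100, 37 and 27. That minimum moved the share of the summed count to 93.7% for protein-coding, 3.83% for retained-intron, 2.35% for processed and 0.100% for nonsense-mediated decay transcripts. With protein-coding transcripts alone, the summed total of the 10 genes was 128003, and the median share of the strongest transcript was 61.4%, beside 72.5% in the coding genes. With the strongest transcript of each gene alone, the summed total was 98375. The number of receptor genes among the 10 largest read totals stayed at 7 with coding transcripts alone, where IGF1R moved from place 9 to 10 and INSR from 11 to 12. The total of INSR moved from 2363 to 1685 and that of AXL from 63189 to 57909 by this choice, and EPHA1 was left without a value. With comparison genes of a total of at least 1000, the median share of their strongest transcript was 61.6%, and 41.0% of them had no listed retained-intron transcript. Since the depth of the libraries is unknown, no interval can be given for any share, and rows near the lowest listed value, such as EPHA1-202, can rest on few reads.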

Other observations

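The antisense gene EGFR-AS1, picked out after its value was seen, had 1 listed transcript, EGFR-AS1-201, with a mean normalized count of 30.0, beside 22483 for EGFR itself. The libraries were made with a stranded kit per the study's methods, while the strand setting of the counting is not given in the sources used here, so whether reads of EGFR and its antisense partner were kept apart is not known.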
